A study of Homo sapiens with 6 samples.

Results

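The TALE homeodomain genes described here are 3 MEIS genes (MEIS1, MEIS2 and MEIS3), 3 PBX genes (PBX2, PBX3 and PBX4) and 2 PKNOX genes (PKNOX1 and PKNOX2). They were taken by gene symbol from a fixed list of names and make up 8 of the 61806 genes in the deposited table. The rule used no measured value, but the list was chosen with earlier results of these data known. RNA was measured in HEK293 cells, an immortal human line that goes back to cultured kidney cells of an embryo transformed with adenovirus DNA. The mutant group was 3 libraries from HEK293 cells that had received the rs16851030 variant by CRISPR homology-directed repair, and the wild-type group was 3 libraries from HEK293 cells without that edit (genotype WT). No drug or time point separated the groups, and both were grown in the same medium with serum. The labels do not say if the mutant libraries stem from 1 edited clone or from several, and p-values measure only the spread between these libraries.

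MEIS, PBX and PKNOX proteins are transcription factors with a homeodomain that carries extra residues in the loop between its first helices, the loop extension that gives the TALE class its name. PBX proteins bind DNA together with HOX proteins and raise the selectivity of that binding. MEIS and PKNOX proteins (the latter also called PREP) bind PBX through a conserved domain outside the homeodomain, help to bring PBX into the nucleus, and form ternary complexes with PBX and HOX on DNA. In the embryo these cofactors act with HOX genes in patterning of the hindbrain, limbs and body axis. In HEK293 cells many HOX genes are transcribed, so partners for these cofactors are present as RNA.

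Counts assigned to genes totalled 16013460 to 20349609 per library, and 12550 genes had a mean level of at least 1 FPKM (counts scaled by exon length and by the library's assigned total) and were tested. ADORA1, the gene that carries the edited position, had 29 to 48 counts per library, with means of 0.573 ± 0.0709 FPKM over mutant libraries (SD, n = 3) and 0.480 ± 0.0964 FPKM over wild-type libraries (SD, n = 3). Its level says nothing about whether the edit is present. Of 8 genes used as markers of HEK293 cells, 6 reached the expression minimum. In the test over all genes 1 of these rose (the neurofilament gene NEFL) and 4 fell (VIM, KRT18, INA and NEFM). LHX1 did not pass, at 1.07 to 1.28 FPKM in the mutant and 0.71 to 1.07 FPKM in the wild type. Of all tested genes, 29.3% rose and 28.7% fell in the same test. The summed level of the 8 was 194.66 to 225.29 FPKM in the wild-type and 141.24 to 145.36 FPKM in the mutant libraries, most of it from the vimentin gene VIM. VIM and INA lie on chromosome 10, where 320 of 492 tested genes were lower and 44 higher. The remaining HEK293 markers, KRT8 and the kidney development factor PAX2, averaged below the expression minimum and were not tested. Both were higher in the mutant without overlap, and the groups did not overlap for 62.9% of all tested genes. KRT8 was at 1.09 to 1.16 FPKM in the mutant and 0.43 to 0.58 FPKM in the wild type. PAX2 was at 0.17 to 0.27 FPKM in the mutant and 0.04 to 0.16 FPKM in the wild type, from 4 to 35 counts. All 9 markers of blood, liver, endothelial, fibroblast, squamous and erythroid cells stayed below the expression minimum. Their summed level was 1.37 to 1.43 FPKM in the mutant and 0.58 to 0.82 FPKM in the wild type. The fibroblast marker COL3A1 held 1.06 to 1.16 FPKM of it in the mutant and 0.27 to 0.43 FPKM in the wild type, while CD3E and HBB had no count in any library and PTPRC had at most 1. The part of both marker lists in the results below was not tested.

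All 8 genes passed the expression minimum, most of them at low levels. MEIS3 averaged 0.863 FPKM in wild-type and 1.83 FPKM in mutant libraries, so it passed only through the mutant group. PBX2 was the most abundant in both groups, with 22.8 ± 0.601 FPKM in mutant and 20.8 ± 2.27 FPKM in wild-type libraries (SD, n = 3). Its mean level was above that of 82.4% of the tested genes. PBX3 came second at 5.90 ± 0.361 and 6.68 ± 0.163 FPKM (SD, n = 3), near the middle of the tested genes (48.7% lay below it). In the wild type the order went on with PKNOX1, MEIS1, MEIS2, PKNOX2, PBX4 and MEIS3. In the mutant it went on with PKNOX1, PKNOX2, MEIS1, MEIS2, MEIS3 and PBX4. Neighbours in these orders did not overlap between libraries, apart from MEIS1 and MEIS2 in wild-type cells and MEIS2 and MEIS3 in mutant cells. MEIS3 was the lowest of the 8 in wild-type cells, and PBX4 the lowest in mutant cells. These levels are per length of exon, and counts behind them ran from 30 in 1 library for PBX4 to 1972 for PBX2.

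**Figure D1:**
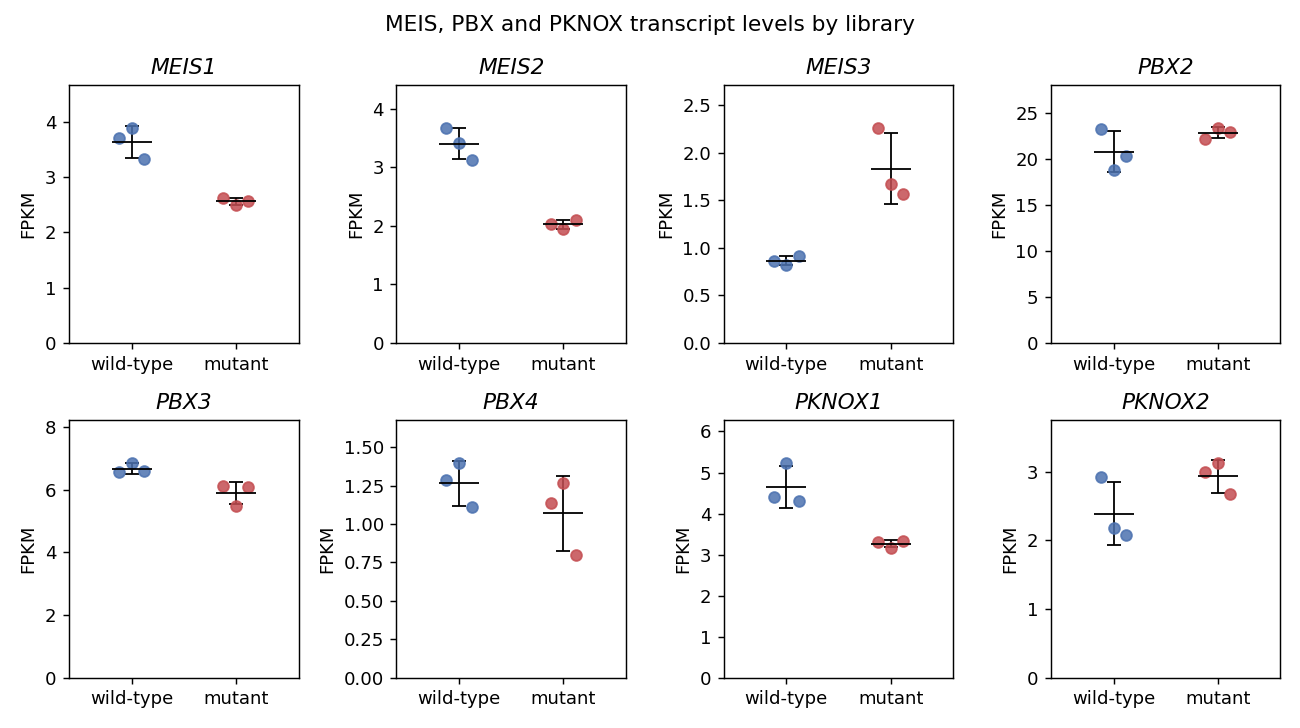
Level of each of the 8 genes in FPKM (y axes, each starting at 0), with 1 point per library, and bars for the mean and SD of 3 libraries. The mutant points lie below all wild-type points for MEIS1, MEIS2, PBX3 and PKNOX1 and above them for MEIS3, while the ranges of the groups overlap for PBX2, PBX4 and PKNOX2.

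The comparison asked whether the cofactors of HOX proteins differed between edited and unedited cells. The changes did not follow the subfamilies. MEIS1, MEIS2, PKNOX1 and PBX3 fell in the mutant, MEIS3 rose, and PBX2, PBX4 and PKNOX2 did not pass the test. In edgeR's quasi-likelihood test with Benjamini-Hochberg adjustment over the 12550 tested genes, 5 of the 8 were called at an adjusted p below 0.05, 1 higher and 4 lower. Over all tested genes the same rule called 58.1%, with 29.3% higher and 28.7% lower, so the share of members called (5 of 8) is near the background. For the same 5 genes the FPKM ranges of the groups did not overlap, which held for 62.9% of all tested genes. The median log2 fold change (mutant minus wild-type) of the 8 was -0.24, where all tested genes had -0.00, and the median size of the change without its sign was 0.40 against 0.25. In bulk RNA, fewer cells with a transcript and less transcript per cell cannot be told apart.

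**Figure D2:**
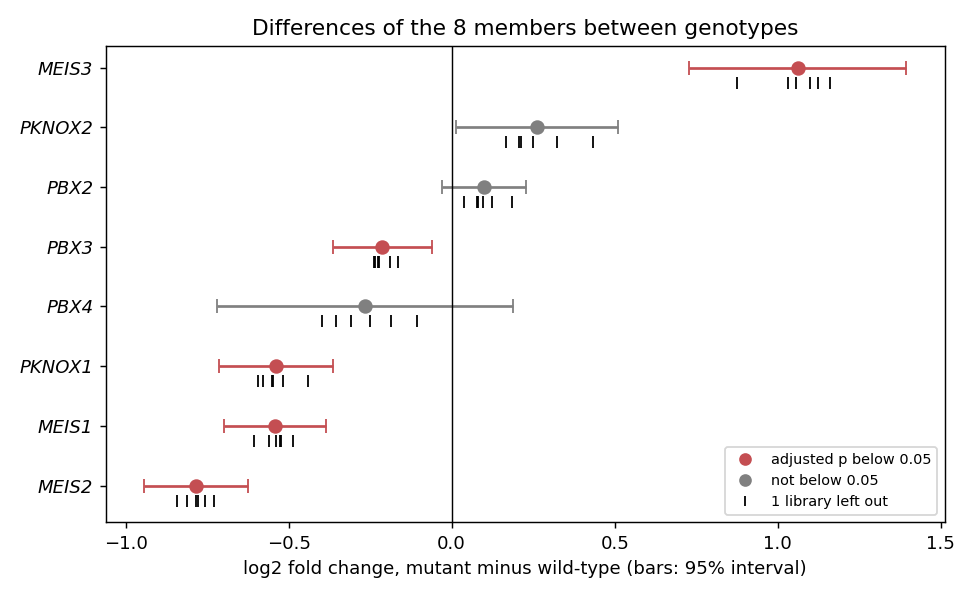
Log2 fold change, mutant minus wild-type, of the 8 genes (points, coloured where the adjusted p was below 0.05) with 95% intervals from the fit, and short ticks for the 6 fits that each leave out 1 library. MEIS2 at -0.78 and MEIS3 at 1.06 mark the ends, and the interval of PBX4 is the widest of those that cross 0.

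MEIS1 and MEIS2, the partners that bind PBX and also contact posterior HOX proteins directly, were both lower in the mutant. MEIS1 (ENSG00000143995, chromosome 2, 66433452 to 66573869, plus strand, GRCh38) stood at 3.71, 3.89 and 3.32 FPKM in wild-type replicates 1 to 3 and at 2.63, 2.49 and 2.56 FPKM in mutant replicates 1 to 3. Every mutant library lay below every wild-type library, and the mutant values were the more tightly grouped. MEIS1 had a log2 fold change of -0.54 (SE 0.07, 95% interval -0.70 to -0.38, adjusted p = 7.12e-06 in edgeR's test), a level 0.688 times that of the wild type.

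MEIS2 (ENSG00000134138, chromosome 15, 36889204 to 37101299, minus strand) had the largest fall of the 8. Its level was 3.67, 3.41 and 3.13 FPKM in the wild-type libraries and 2.03, 1.94 and 2.10 FPKM in the mutant libraries, again without overlap. The fit gave MEIS2 a log2 fold change of -0.78 (SE 0.08, 95% interval -0.94 to -0.62, adjusted p = 1.17e-07), a level 0.581 times that of the wild type. Of all tested genes, 91.0% had a smaller change in size. With each library left out in turn the log2 fold change of MEIS2 stayed between -0.84 and -0.73.

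MEIS3, known from its part in hindbrain patterning, went the other way. MEIS3 (ENSG00000105419, chromosome 19, 47403124 to 47419527, minus strand) stood at 0.86, 0.82 and 0.91 FPKM in the wild-type libraries, from 71 to 83 counts. In the mutant libraries it stood at 2.26, 1.67 and 1.57 FPKM, from 236, 144 and 129 counts. Mutant replicate 1 was the highest, and all 3 mutant libraries lay above the wild type. This was a log2 fold change of 1.06 (SE 0.16, 95% interval 0.73 to 1.39, adjusted p = 1.71e-05), a rise of 2.09-fold with an interval of 1.66-fold to 2.63-fold. A called rise of at least 2-fold was found for 3.55% of tested genes, a set that MEIS3 entered only through its mutant level. In edgeR's test without an expression filter its log2 fold change was 1.03 (adjusted p = 2.34e-10). Without mutant replicate 1 the log2 fold change of MEIS3 was 0.87 (adjusted p = 2.84e-04). The pseudogenes MEIS3P1 and MEIS3P2, which resemble MEIS3, had no count in any library.

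Among the PBX genes, which encode the direct DNA-binding partners of HOX proteins, PBX3 was slightly lower and the others did not pass. PBX3 (ENSG00000167081, chromosome 9, 125747345 to 125967377, plus strand) was measured at 6.57, 6.87 and 6.61 FPKM in the wild-type libraries and at 6.11, 5.48 and 6.10 FPKM in the mutant libraries. The groups did not overlap, but the gap between the lowest wild-type and the highest mutant library was narrower than the range of the mutant values. PBX3 thus changed by -0.21 on the log2 scale (SE 0.07, 95% interval -0.36 to -0.06, adjusted p = 0.0172). The call was lost without mutant replicate 2 (adjusted p = 0.0920) and without wild-type replicate 2 (adjusted p = 0.0574).

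PBX2 (ENSG00000204304, chromosome 6, 32184733 to 32190202, minus strand), a broadly expressed PBX gene that lies among the genes of the major histocompatibility complex, did not pass the test. Its level was 23.29, 18.85 and 20.28 FPKM in the wild-type libraries and 22.19, 23.38 and 22.93 FPKM in the mutant libraries. Wild-type replicate 1 lay within the range of the mutant, and the other wild-type libraries lay below it. For PBX2 the log2 fold change was 0.10 (SE 0.06, 95% interval -0.03 to 0.23, adjusted p = 0.176), which covers levels from 0.979 to 1.17 times the wild type. Without wild-type replicate 1 it was 0.19, with an adjusted p of 0.00445 in edgeR's test, and without wild-type replicate 2 it was 0.04 (adjusted p = 0.611). PBX2P1, a pseudogene copy of PBX2, had 2 to 8 counts per library.

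PBX4 (ENSG00000105717, chromosome 19, 19561707 to 19618693, minus strand), whose expression is described mainly in testis, was at the edge of what these libraries can resolve. It had 54, 55 and 46 counts in the wild-type libraries (1.29, 1.40 and 1.11 FPKM) and 54, 50 and 30 counts in the mutant libraries (1.14, 1.27 and 0.80 FPKM). The groups overlapped, with mutant replicate 3 the lowest. The log2 fold change of -0.26 (SE 0.22) came with an adjusted p of 0.307 and 95% bounds of -0.72 and 0.19, so that levels from 0.608 to 1.14 times the wild type lie within the interval. It was -0.11 without mutant replicate 3 (adjusted p = 0.715) and -0.40 without mutant replicate 2 (adjusted p = 0.184).

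The PKNOX genes encode PBX partners that, unlike MEIS, are known mostly as general partners of PBX without direct contact to HOX. PKNOX1 (ENSG00000160199, chromosome 21, 42974510 to 43033931, plus strand) stood at 4.40, 5.24 and 4.31 FPKM in the wild-type libraries and at 3.31, 3.16 and 3.34 FPKM in the mutant libraries. The groups did not overlap, and wild-type replicate 2 was the highest. PKNOX1 changed by -0.54 on the log2 scale (SE 0.08, 95% interval -0.71 to -0.36, adjusted p = 2.46e-05), a level 0.688 times that of the wild type and a change of nearly the same size as that of MEIS1.

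PKNOX2 (ENSG00000165495, chromosome 11, 125164687 to 125433389, plus strand) did not pass the test. Its level was 2.92, 2.18 and 2.07 FPKM in the wild-type libraries and 2.99, 3.13 and 2.67 FPKM in the mutant libraries. As for PBX2, wild-type replicate 1 lay within the mutant range and the other wild-type libraries below it. PKNOX2 had a log2 fold change of 0.26 (SE 0.12, 95% interval 0.01 to 0.51, adjusted p = 0.0656). Without wild-type replicate 1 it was 0.43 (adjusted p = 0.00156), and without mutant replicate 3 it was 0.32 (adjusted p = 0.0484). It was 0.17 without wild-type replicate 3 (adjusted p = 0.274), 0.21 without wild-type replicate 2 (adjusted p = 0.189) and 0.21 without mutant replicate 2 (adjusted p = 0.206). An exact two-sided permutation test on log2 FPKM, which cannot give less than 0.1 with 3 against 3 libraries, gave 0.1 for the 5 called genes, 0.3 for PBX2, 0.4 for PBX4 and 0.2 for PKNOX2.

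The make-up of the subfamilies differed between the groups although the summed level of the 8 genes was similar, at 42.4 ± 0.308 FPKM in the mutant and 43.7 ± 2.64 FPKM in the wild type (SD, n = 3). MEIS3 held 10.4, 10.1 and 12.4% of the summed FPKM of the 3 MEIS genes in the wild-type libraries and 32.7, 27.4 and 25.2% in the mutant libraries, without overlap. The sum of MEIS1 and MEIS2 was 7.04 ± 0.515 FPKM in wild-type libraries and 4.58 ± 0.133 FPKM in mutant libraries (SD, n = 3). With MEIS3 added, the MEIS sum was 7.91 ± 0.477 and 6.42 ± 0.441 FPKM (SD, n = 3). PKNOX1 held 66.1% ± 5.41 of the PKNOX sum in wild-type libraries and 52.8% ± 2.68 in mutant libraries (SD, n = 3). Because PBX2 dominated, the 3 PBX genes together held 63.6 to 67.1% of the summed level of the 8 in the wild-type libraries and 69.0 to 70.9% in the mutant libraries. These sums weight genes by their level and are given without a test.

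**Figure D3:**
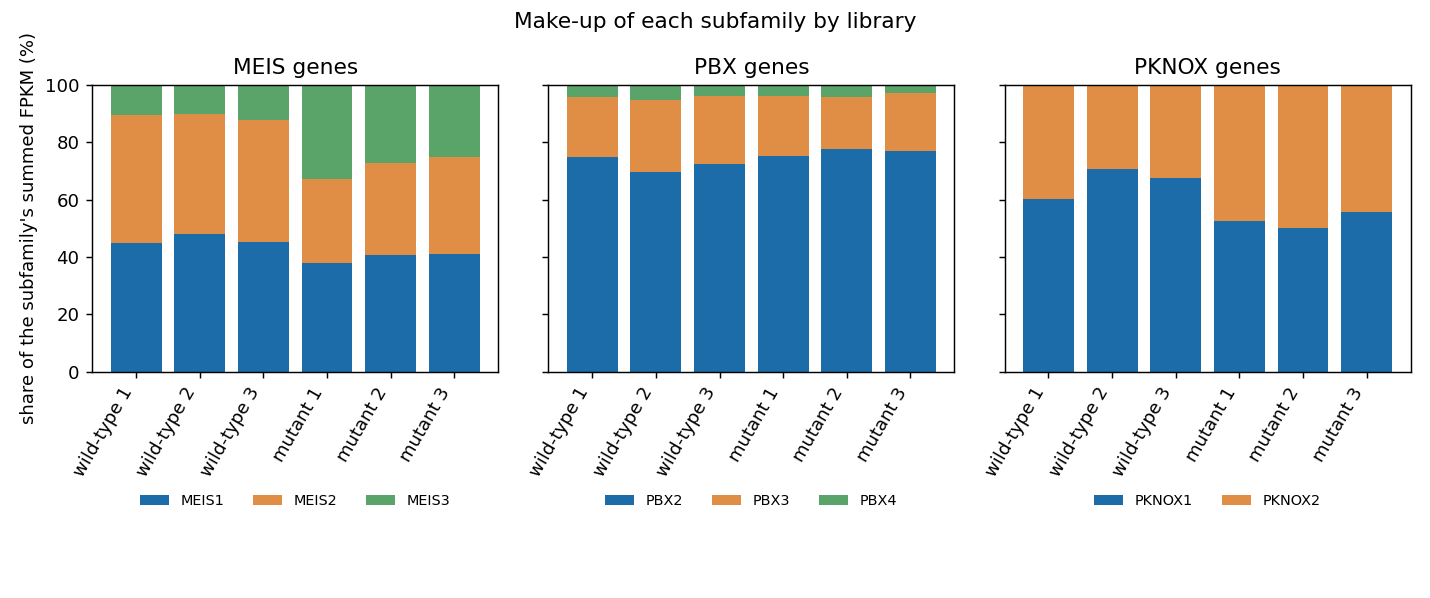
Share of each gene in the summed FPKM of its subfamily (y axis, percent), with 1 stacked bar per library, for the 3 MEIS, the 3 PBX and the 2 PKNOX genes analysed here. MEIS3 takes 10.1 to 12.4% of the MEIS sum in the wild-type bars and 25.2 to 32.7% in the mutant bars.

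Tested genes of some chromosomes were shifted between the groups. The median log2 fold change was -0.36 on chromosome 10 (320 of 492 genes lower) and 0.29 on chromosome 16 (362 of 578 higher). It was -0.13 on chromosome 20 (144 of 329 lower, 77 higher), -0.16 on chromosome 22 (139 of 333 lower, 55 higher) and -0.62 for mitochondrial DNA (16 of 16 lower). None of the 8 genes lies on these. On the chromosomes that carry them the medians ran from -0.05 (chromosome 19) to 0.06 (chromosome 6). The 24 nearest tested genes around MEIS1 had a median of 0.04, those around MEIS2 one of 0.03 and those around PKNOX1 one of 0.02, all outside the intervals of these genes. Around MEIS3 the median was 0.18, with 11 neighbours higher and 6 lower, on the same side as MEIS3 but smaller. Around PBX3 (-0.14), PBX4 (-0.19) and PBX2 (0.11) the neighbours' median lay inside the interval of the gene itself.

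**Figure D4:**
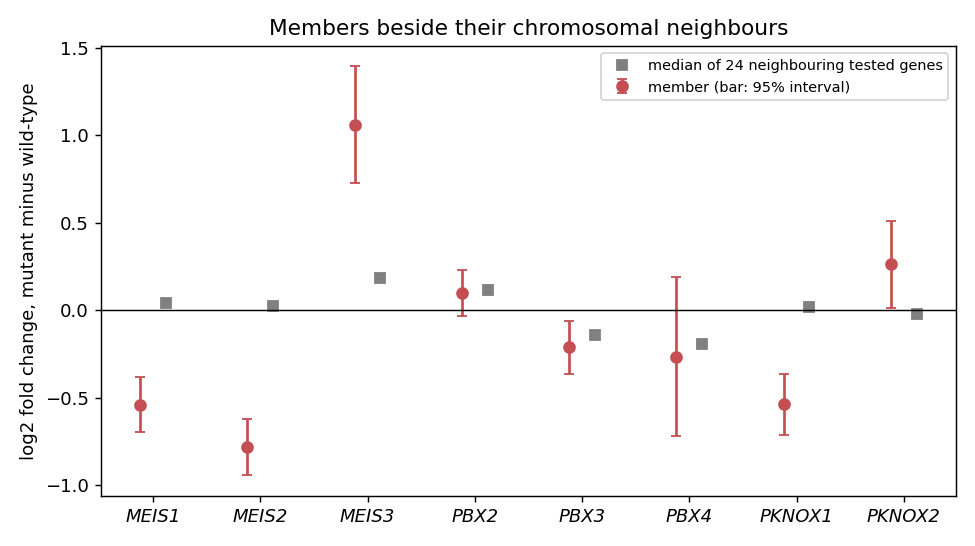
Log2 fold change, mutant minus wild-type, of each gene with its 95% interval (circles) and the median over the 24 nearest tested genes on the same chromosome (squares). The squares lie between -0.19 and 0.18, outside the intervals of MEIS1, MEIS2, MEIS3, PKNOX1 and PKNOX2 and inside those of the PBX genes.

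Transcript length and overlapping genes were also examined. MEIS1 and MEIS2 have long summed exons (10942 and 11897 bases), and the 1740 tested genes above 10000 bases had a median log2 fold change of 0.05. MEIS1 overlaps the antisense genes MEIS1-AS3 and MEIS1-AS2, which had at most 10 counts per library. PBX2 shares 1150 bases on the same strand with a gene without a symbol, ENSG00000273333, which had no count in any library. Other overlapping genes had at most 1 count. The sources used here do not say if counting used strand or how reads on shared bases were treated.

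Promoter sequence is shown for the 4 genes with the largest changes (MEIS3, MEIS2, MEIS1 and PKNOX1), since MEIS genes are known to be bound by HOX and TALE proteins themselves. RefSeq promoter entries (GRCh38.p14, 250 bases before to 50 after a start site) matched 7 of the 8 genes. Each line gives, 5′ to 3′ on the gene's strand, bases upstream of a RefSeq start site that lie in no GENCODE exon of the gene. The stretches are chr19:47419528-47419777 (minus strand) for MEIS3, chr15:37098697-37098900 (minus strand) for MEIS2, chr2:66434875-66435124 (plus strand) for MEIS1 and chr21:42974312-42974509 (plus strand) for PKNOX1. MEIS2 and MEIS3 have 2 entries each, and the stretch comes from the second. The MEIS1 and MEIS2 stretches lie inside the deposited bounds of their genes, at internal start sites. The PKNOX1 stretch ends 52 bases before its start site. Capitals mark matches to TGATNNAT, the letters of a composite HOX and PBX site, or to TGACAG, the core of a MEIS or PKNOX site, on either strand.
MEIS3: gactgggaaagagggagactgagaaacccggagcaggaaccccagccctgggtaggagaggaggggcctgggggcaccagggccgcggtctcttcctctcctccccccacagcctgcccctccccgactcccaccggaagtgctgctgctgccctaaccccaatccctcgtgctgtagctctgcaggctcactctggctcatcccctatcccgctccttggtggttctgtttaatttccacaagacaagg
MEIS2: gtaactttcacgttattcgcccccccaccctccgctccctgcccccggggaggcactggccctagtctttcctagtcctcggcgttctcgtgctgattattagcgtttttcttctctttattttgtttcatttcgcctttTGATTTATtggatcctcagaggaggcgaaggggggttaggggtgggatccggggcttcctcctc
MEIS1: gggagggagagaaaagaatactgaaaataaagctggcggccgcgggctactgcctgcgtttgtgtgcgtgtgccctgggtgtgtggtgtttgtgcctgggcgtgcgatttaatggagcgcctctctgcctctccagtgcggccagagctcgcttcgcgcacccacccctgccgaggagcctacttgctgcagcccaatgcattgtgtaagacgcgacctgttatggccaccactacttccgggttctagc
PKNOX1: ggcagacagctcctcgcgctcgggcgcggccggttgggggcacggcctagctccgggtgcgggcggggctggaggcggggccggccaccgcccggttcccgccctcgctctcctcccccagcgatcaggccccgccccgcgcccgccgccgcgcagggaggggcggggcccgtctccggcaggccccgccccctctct
The only match in these 4 stretches was TGATTTAT in the MEIS2 promoter, 64 bases upstream of the start site. TGATNNAT was found in 7.40% and TGACAG in 15.8% of 35116 RefSeq promoter entries of 300 bases, searched on both strands. Over the 9 entries of the TALE genes, the MEIS2 match was the only one to TGATNNAT. The only match to TGACAG was in the PBX3 promoter (chr9:125748155-125748176, plus strand), in reverse orientation and 20 bases upstream of the start site, and is shown with 8 flanking bases on each side.
PBX3: ttgccgagCTGTCAccctcccg
No match overlapped another, and a match is a description of letters and not of binding. The GC content of the printed stretches was 54.4% for MEIS2, 59.6% for MEIS1, 63.2% for MEIS3 and 82.8% for PKNOX1.

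The other TALE homeobox genes, which do not act as HOX cofactors in the same way, moved in both directions. Of 9 (TGIF1, TGIF2, the IRX genes and MKX), 6 were tested, of which 2 rose, 1 fell and 3 did not pass, with a median of 0.04. IRX6 rose by 1.46 on the log2 scale (SE 0.21, adjusted p = 1.48e-05) and IRX3 by 0.58 (SE 0.10, adjusted p = 7.56e-05), both on chromosome 16, where 362 of 578 tested genes were higher. IRX6 averaged 0.623 FPKM in wild-type and 1.76 FPKM in mutant libraries, so it passed the expression minimum only through the mutant group. IRX genes encode factors of neural and heart patterning. TGIF1, a repressor that limits TGF-beta and retinoid signalling, fell by 0.61 on the log2 scale. It was at 1.47 ± 0.0872 FPKM in wild-type and 0.983 ± 0.0751 FPKM in mutant libraries (SD, n = 3). TGIF1 thus passed the expression minimum only through the wild-type group.

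HOX genes, whose proteins these cofactors bind, were mostly lower in the mutant. Of 39 HOX genes, 34 were tested, of which 27 fell and 7 did not pass, with a median log2 fold change of -0.64. Of all tested genes 28.7% were called lower. By adjusted p the leading ones were HOXA9 (-1.25), HOXA5 (-1.49) and HOXB6 (-1.96). HOXA9, the partner with which MEIS1 is best known to act in leukaemia, had 39.9 ± 0.649 FPKM in wild-type libraries and 17.2 ± 0.642 FPKM in mutant libraries (SD, n = 3). Neighbouring HOX genes overlap one another's transcripts, so single HOX values are uncertain.

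Of 18 genes of proteins that bind or regulate TALE factors, all were tested, of which 4 rose, 6 fell and 8 did not pass (median -0.09). PSIP1, which tethers the MLL and menin complex that maintains HOX and MEIS1 transcription, went from 29.9 ± 0.146 FPKM up to 41.9 ± 0.0985 FPKM (SD, n = 3) and rose by 0.45 on the log2 scale. The histone acetyltransferase gene EP300 (-0.48) and the myosin gene MYH9 (-0.37) fell, both on chromosome 22. Outside the naming rule and chosen after their values were seen, CRTC1 (-0.67) and CRTC2 (-0.48), coactivators described with MEIS1 and CREB, fell, while their relative CRTC3 was at 0.12 (adjusted p = 0.138). PBXIP1, which binds PBX and blocks its DNA binding, rose by 0.29 and KMT2A, the MLL gene, by 0.25, while the menin gene MEN1 fell by 0.21 (these, too, chosen after their values were seen).

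Of 18 genes described elsewhere as targets of MEIS, PBX or PKNOX with HOX, 11 were tested, of which 4 rose, 3 fell and 4 did not pass (median 0.09). TRIB2, a pseudokinase gene known as a MEIS1 target in leukaemia, had 5.13 ± 0.438 FPKM in wild-type and 10.6 ± 0.510 FPKM in mutant libraries (SD, n = 3) and rose by 1.01 on the log2 scale (SE 0.07, adjusted p = 3.72e-09). CDKN2B, a cell cycle inhibitor, fell by 0.81 and HIF1A, the hypoxia factor gene, by 0.27. These lists were drawn up from general knowledge, but with earlier results of these data known. Their counts are read beside the background of 58.1% called, with 29.3% higher and 28.7% lower. For the other TALE genes, the partners and the targets the share called was near that background.

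PBX2, the most abundant of the 8, had no clear genotype pattern. The tested genes most like PBX2 were found by Pearson's r of log2 CPM over the 6 libraries. CPM here is the count scaled to the library total after TMM adjustment. They were ENO2 (r = 0.999), the neuronal enolase gene, PLA2G6 (r = 0.996), a phospholipase gene, and a gene without a symbol, ENSG00000267317 (r = 0.989). These are the highest of 12550 values over 6 libraries that share their depth and their groups, and are given as a description.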

How the data were processed

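The authors deposited 1 table with a count and an FPKM column for each of the 6 libraries. The submitters' processing notes name cutadapt, HTSeq, HISAT2 (version 2.0.1) and the build GRCh38. The sources used here give neither the annotation release nor the strand setting. The deposited FPKM values equalled the deposited counts scaled by exon length and library total within 0.005.

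Counts of genes that averaged at least 1 FPKM over the 6 libraries were tested in edgeR 4.0.16 (quasi-likelihood F-test, TMM scaling, library totals over all genes, genotype as the single factor, two-sided). P-values were adjusted by Benjamini-Hochberg over all 12550 tested genes and called below 0.05. Standard errors and 95% intervals came from the same fit. Fold changes are mutant minus wild-type. The design had named the count test, or limma 3.58.1 if there were no counts. DESeq2 1.42.0, limma on log2(FPKM + 1), other scalings and filters, a replicate block and leaving out each library were alternatives, and library totals, quantile normalization and TPM were added after seeing the data. On simulated counts over 12550 genes, 100 genes were changed at each fold. Of these, 84% of genes changed 1.5-fold and 93% of genes changed 2-fold were recovered. Of the genes called there, 5.85% had not been changed. The data had 58.1% of tested genes called, so the simulation does not cover a change that wide. No libraries were duplicates (chi-square per degree of freedom of at least 2.49). Intervals cover these libraries only.

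All 8 genes were named. From each other list the 3 tested genes with the smallest adjusted p were named, and others are marked in the text. The genes and lists were chosen with earlier results of these data known. One marker gene of the design is not reported here.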

Additional observations from a re-analysis of the deposited data

How the results depend on the processing

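MEIS1, MEIS2, MEIS3 and PKNOX1 kept their direction and their call in all 16 alternatives in which they were tested. Their log2 fold changes were -0.61 to -0.35, -0.84 to -0.51, 0.44 to 1.16 and -0.59 to -0.37. The smallest in size came from limma on TPM or, for MEIS3, after quantile normalization. Both settings added 1 to each level before the log, so these values are not on the scale of edgeR's. In limma on FPKM, MEIS3 was at 0.60 with 1 added and 0.99 with 0.1 added, and MEIS1 at -0.38 and -0.49. The cause was not tested. PBX3 was called in 13 of 17 (adjusted p of 0.00940 to 0.105), PKNOX2 in 5 of 16 (0.00156 to 0.422), PBX2 in 1 of 17 (0.00445 to 0.611) and PBX4 was not called in any of 16 (0.0633 to 0.715), and no direction reversed. With a minimum of 5 FPKM, 4600 genes were called in place of 7287, and 0 of the 8 genes in edgeR's test, where only PBX2 and PBX3 were tested and PBX3 lost its call (log2 fold change -0.17, adjusted p = 0.0530; both had an unadjusted p below 0.05). With 1 library left out, 6437 to 7407 genes and 4 to 7 of the 8 were called. The median log2 fold change of all tested genes moved by less than 0.1 under every scaling, but 62.5% of called genes were higher with TPM against 50.5% in the fit reported. Replicate numbers are shared between the groups, but same-numbered libraries did not deviate together (r = 0.01, -0.05 and -0.03), so the numbers were not taken as pairs; with a replicate block 7074 genes and 6 of the 8 were called, PKNOX2 being added (adjusted p = 0.0419). Depth limits PBX4, at 30 to 55 counts per library, and to a lesser degree MEIS3, at 71 to 236.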
